A study of Mus musculus with 16 samples.

Results

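The complement system of the brain was followed through 8 genes: the C1q chains C1qa, C1qb and C1qc, the components C3 and C4b, and the receptors C3ar1, C5ar1 and Itgam. They were chosen by name, not by their values, from the 39179 genes counted in every library, and all 8 passed the filter on low counts that left 18074 genes for testing. RNA was sequenced from cells given as cortical or hippocampal neurons of adult TERT-AD mice of the strain B6.129S6.SvEvTac, a model in which tamoxifen is meant to activate Tert, the catalytic subunit of telomerase. Controls and tamoxifen samples from each region made 4 groups of 4 libraries, and every group, controls included, came from TERT-AD mice given either tamoxifen or the vehicle. The driver of the transgene, the alleles behind the AD part of the name, the ages, the number of animals and the isolation of the neurons are not stated in the sources used here. Libraries 1 and 2 of a group were nearly repeats of each other, as were libraries 3 and 4, so their counts were added to give samples A and B of each group.

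Complement is a cascade of secreted proteins. C1q, built from 3 kinds of chain, recognises its target and starts the classical pathway, C4 and then C3 are cleaved and tag the target, and the fragments C3a and C5a signal through their own receptors. In the brain microglia are the main source of C1q, and they carry the C3a receptor, the C5a receptor and CD11b, the Itgam product, which pairs with the Itgb2 product as complement receptor 3. Complement tagging and uptake by microglia take part in synapse removal during development and in mouse models of Alzheimer's disease.

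The samples held 83527470 to 108293362 counts in genes. Mitochondrial genes took 20.4% of the counts in cortical tamoxifen sample B and 24.0 to 31.5% in the other 7 samples. This sample also had the highest neuronal Snap25, at 1031 CPM (a gene's counts scaled to a library total of 1000000) against 152 to 372 CPM elsewhere, and the lowest myelin Mbp, at 16450 CPM. Tert, the gene the treatment should raise, stood at 0.473 and 1.11 CPM in cortical controls A and B, 1.04 and 2.33 CPM in cortical tamoxifen, 1.47 and 3.89 CPM in hippocampal controls and 1.04 and 2.16 CPM in hippocampal tamoxifen. Its difference with tamoxifen on the log2 scale was 0.83 (SE 0.67) in cortex and -0.72 (SE 0.65) in hippocampus, with edgeR adjusted p of 0.834 and 1. Those sources do not state if transgene reads fall under Tert. The neuron label did not describe all of the RNA: the 15 microglial markers summed to 771 to 1041 CPM in cortical samples and 1642 to 2719 CPM in hippocampal samples. Of 8 markers of blood monocytes and neutrophils, 7 were under 1 CPM in every sample.

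The C1q chains lie side by side on the minus strand of chromosome 4 in mm10: C1qb at chr4:136880129-136886187, C1qc at chr4:136889804-136893065 and C1qa at chr4:136895917-136898803. The cluster spans 18675 bases, with 3616 bases between C1qb and C1qc and 2851 bases between C1qc and C1qa. Each gene has 3 exons in the GENCODE M21 models, and no other gene overlaps them. The promoters of C1qb, C1qc and Itgam are shown because these genes had similar profiles across the samples. They are RefSeq windows on GRCm38.p6, 250 bases before and 50 bases after the start, written 5′ to 3′ on the gene's strand. Capitals mark the letters GAGGAA or their reverse complement TTCCTC, the core bound by PU.1, a transcription factor of the myeloid lineage.
C1qb, chr4:136886151-136886450, minus strand: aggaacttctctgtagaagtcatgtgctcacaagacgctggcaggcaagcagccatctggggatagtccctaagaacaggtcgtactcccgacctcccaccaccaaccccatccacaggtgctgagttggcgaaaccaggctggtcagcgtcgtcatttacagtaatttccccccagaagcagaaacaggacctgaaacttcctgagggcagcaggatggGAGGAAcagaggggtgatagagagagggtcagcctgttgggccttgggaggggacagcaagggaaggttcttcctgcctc
C1qc, chr4:136892865-136893164, minus strand: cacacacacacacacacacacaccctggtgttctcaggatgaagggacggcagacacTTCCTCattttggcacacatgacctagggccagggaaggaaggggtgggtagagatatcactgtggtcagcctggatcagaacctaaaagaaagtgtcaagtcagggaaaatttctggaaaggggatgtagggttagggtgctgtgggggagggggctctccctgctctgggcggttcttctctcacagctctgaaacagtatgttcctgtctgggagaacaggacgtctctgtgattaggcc
Itgam, chr7:128062390-128062689, plus strand: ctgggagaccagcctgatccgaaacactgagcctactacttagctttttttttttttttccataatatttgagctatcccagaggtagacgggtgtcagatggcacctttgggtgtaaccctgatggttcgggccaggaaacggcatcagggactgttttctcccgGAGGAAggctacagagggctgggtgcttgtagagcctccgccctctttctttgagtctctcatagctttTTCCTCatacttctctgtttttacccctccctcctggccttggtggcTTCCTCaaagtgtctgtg

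The motif GAGGAA, searched on both strands, occurred once in the C1qb window, 30 bases before the start, and once in the C1qc window, 193 bases before it. The Itgam window held 3 matches, 84 and 15 bases before the start and 32 bases after it. Of 32544 mouse promoter windows of the same length, 28.1% held the motif, so a match in a single promoter is common. No GAGGAA was found in the windows of C3ar1, C5ar1 and C3. The C3ar1 window held the AP-1 motif TGANTCA 22 bases before the start, present in 7.79% of all windows, and the TATA box letters TATAAA 235 bases before it, present in 13.6%. TATAAA also occurred in the C3 window, 14 bases after the start. C1qa and C4b had no entry in the promoter table.

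C1q transcripts were by far the most abundant of the 8. Levels were set per kilobase of exon, which compares genes only as well as the length used fits the transcript. That length was 1928 bases for C1qc, 1037 for C1qa, 1085 for C1qb and 6346 for Itgam. Their longest transcripts held 1154, 991, 1039 and 4633 distinct 50-base stretches in turn. The C1qc and Itgam values per kb may therefore be too low. On this scale the C1q chains together held 93.5 to 95.7% of the summed level of the 8 genes in every sample. In cortical controls the means were 114 CPM per kb for C1qb (SD 13.3, n = 2), 92.4 for C1qa (SD 10.5, n = 2) and 56.8 for C1qc (SD 5.86, n = 2). In hippocampal controls C1qa came first, at 239 CPM per kb (SD 61.3, n = 2), then C1qb at 211 (SD 47.0, n = 2) and C1qc at 118 (SD 28.9, n = 2). The means of C1qa and C1qb were nearer to each other than their SD in hippocampus. Compared within each sample, C1qa lay above C1qb in all 4 hippocampal samples and below it in all 4 cortical ones. C1qc lay below both in every sample on this scale, which rests on the length used for it. In CPM it lay above C1qa in all cortical samples. Below them the order was the same in all 4 groups: Itgam at 7.88 to 19.0 CPM per kb as group means, C4b at 3.58 to 12.4, C3ar1 at 0.919 to 3.28, C5ar1 at 0.203 to 1.02 and C3 at 0.0489 to 0.227.

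**Figure D1:**
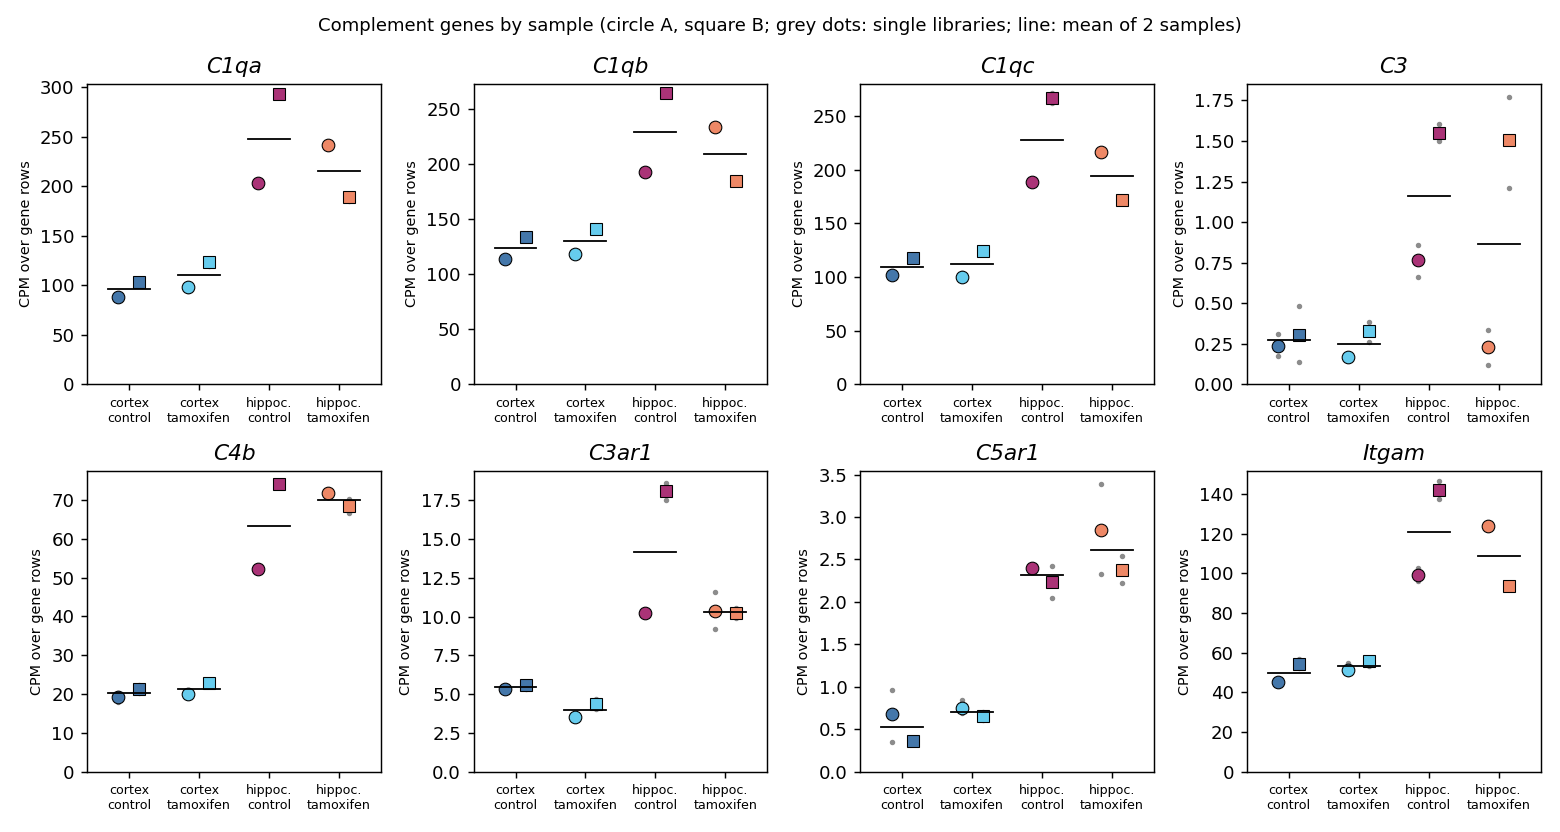
CPM over gene rows of each of the 8 complement genes (y axis, from 0) in the 4 groups; circles are sample A, squares sample B, grey dots the single libraries and lines the mean of the 2 samples. For every gene but C3, each hippocampal sample sits above each cortical sample, while tamoxifen and control samples of a region are intermixed except for C3ar1 in cortex.

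C1qa, the A chain, stood at 88.1 and 103 CPM in cortical controls A and B and at 98.2 and 123 CPM in cortical tamoxifen. In hippocampus it reached 203 and 293 CPM in controls and 241 and 189 CPM in tamoxifen. Every hippocampal value lay above every cortical value, and hippocampal control B was the highest. C1qb, the B chain, ran from 113 to 141 CPM over the 4 cortical samples and from 184 to 265 CPM over the 4 hippocampal ones. C1qc, the C chain, ran from 99.7 to 124 CPM in cortex and from 172 to 267 CPM in hippocampus. Neither gene's regions overlapped, and tamoxifen and control samples overlapped within each region.

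Averaged over both treatment labels, hippocampus exceeded cortex by 0.89 on the log2 scale for C1qa (SE 0.16, edgeR adjusted p = 0.013) and 0.66 for C1qc (SE 0.15, edgeR adjusted p = 0.0281). For C1qb the value was 0.51 (SE 0.15), and its edgeR adjusted p of 0.0565 missed the threshold of 0.05. Of the 10 alternatives that kept all 8 samples, 6 did call C1qb. Among these were DESeq2 and the fit of the 16 libraries taken separately, which counts near repeats as independent samples. These fold changes use TMM scaling over 18074 genes, and their p-values reflect no more than the scatter of these 8 samples, since the labels do not say which came from separate animals. Among the 8 genes 6 were called higher in hippocampus in this comparison, where 8.42% of all genes were called higher. The median of the 8 genes was 1.00 on the log2 scale against 0.00 for all genes. Without TMM scaling the median of all genes rose to 0.27, and the calls over all genes went from 1521 higher and 1797 lower to 3108 higher and 544 lower. In bulk samples such as these, fewer cells of a type and less RNA per cell cannot be told apart.

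The ratios between the chains are given as a description, being among 6 ratios chosen after the data were seen. An exact permutation test between regions was run on the 6, but because of that choice its p-values are not used. The regions overlapped for C3ar1 to Itgam and for C5ar1 to C3ar1. The ratio of C1qa to C1qb, which no scaling of a library can move, was 0.777 and 0.774 in cortical controls, 0.827 and 0.873 in cortical tamoxifen, 1.05 and 1.11 in hippocampal controls and 1.03 and 1.02 in hippocampal tamoxifen. Its mean was 0.813 in cortex (SD 0.047, n = 4) and 1.05 in hippocampus (SD 0.037, n = 4), and the regions did not overlap. The ratios of C1qa to C1qc and of C1qc to C1qb were likewise higher in all 4 hippocampal samples than in all 4 cortical ones. Some ratios also separated the labels, though with 2 samples a group this is weak, and how often other gene pairs separate was not computed. In cortex C1qa to C1qb was higher with tamoxifen, as was C1qa to C1qc, at 0.867 and 0.880 in controls against 0.985 and 0.990. In hippocampus C1qa to C1qb was lower with tamoxifen, as was C1qc to C1qb, at 0.978 and 1.01 in controls against 0.928 and 0.935. The labels overlapped for C1qc to C1qb in cortex and for C1qa to C1qc in hippocampus.

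**Figure D2:**
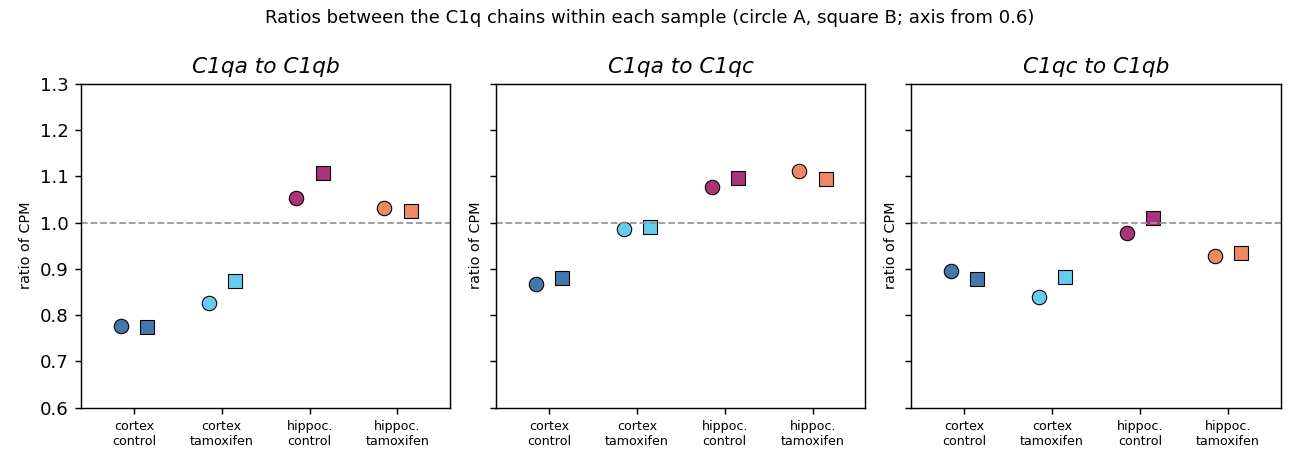
Ratios of CPM between C1q chains (y axis, from 0.6) in each sample of the 4 groups, circles for sample A and squares for sample B; the dashed line marks equal CPM. C1qa to C1qb lies between 0.774 and 0.873 in cortex and between 1.02 and 1.11 in hippocampus.

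C4b, which carries the tag of the classical pathway, lies on the minus strand at chr17:34728380-34743882. Of the 50-base stretches of its transcript, 35.2% also occur in the neighbouring copy C4a, so reads could be lost to or shared with C4a and the C4b count is uncertain. C4b stood at 19.2 and 21.4 CPM in cortical controls, 19.9 and 22.8 CPM in cortical tamoxifen, 52.2 and 74.1 CPM in hippocampal controls and 71.7 and 68.5 CPM in hippocampal tamoxifen. The lowest hippocampal sample was well above the highest cortical one. The log2 fold change between regions was 1.40 (SE 0.15, edgeR adjusted p = 0.00455) over both labels, 1.26 (SE 0.21, edgeR adjusted p = 0.031) among controls and 1.55 (SE 0.21, edgeR adjusted p = 0.0368) among tamoxifen samples. C4b was the only one of the 8 called in each of these 3 regional comparisons. It stayed past the threshold over both labels in every alternative run, leaving out any of the 8 samples included. Its calls among controls and among tamoxifen samples were lost in 5 and 6 of the 8 fits that left out a sample, at edgeR adjusted p up to 0.236 and 0.174.

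The ratio of C4b to C1qb, likewise chosen after the data were seen, was 0.160 to 0.169 in the 4 cortical samples and 0.271 to 0.372 in the 4 hippocampal ones. The highest ratios were those of hippocampal tamoxifen, and the labels overlapped in cortex. Astrocytes are a known source of C4 in brain. Of the 10 markers listed for them, regional differences over both labels ran from -0.21 to 1.36, with Gfap at the top. Gfap stood at 188 to 239 CPM in cortex and 660 to 750 CPM in hippocampus. On TMM scaling Aqp4 ran from 64.0 to 106.8 CPM in cortex and from 106.9 to 138.9 CPM in hippocampus. Over both labels 8 of the 10 astrocyte markers had positive regional differences, where 50% of all genes did, 6 were called higher against 8.42% of all genes, and the median was 0.39. Among controls 6 of the 10 were positive and 1 was called higher, with a median of 0.04. Of all genes 50.1% were positive there and 2.71% called higher. Among tamoxifen samples 10 were positive and 2 called higher, with a median of 0.76. There 47.5% of all genes were positive and 0.426% called higher. Their summed level was 6575 to 8942 CPM in cortex and 8905 to 11624 CPM in hippocampus, and their part in the C4b result was not tested.

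C3, the component on which all pathways converge, lies at chr17:57203970-57228136 on the minus strand and was nearly silent, with 14 to 168 counts per sample. It stood at 0.236 and 0.307 CPM in cortical controls, 0.168 and 0.331 CPM in cortical tamoxifen, 0.764 and 1.55 CPM in hippocampal controls and 0.228 and 1.505 CPM in hippocampal tamoxifen. Hippocampal tamoxifen A lay within the cortical range, and the other 3 hippocampal samples lay above it. The regional difference of 1.71 (SE 0.61, edgeR adjusted p = 0.0936) was not called. Leaving out hippocampal tamoxifen A gave 2.11 with an edgeR adjusted p of 0.0314, and leaving out sample B of that group gave 0.76 with 0.297.

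The sample with little hippocampal C3 also had few transcripts of choroid plexus. The 7 choroid plexus markers summed to 47.1 CPM in hippocampal tamoxifen A while the remaining 3 from hippocampus had 8055 to 17199 CPM. In cortex, tamoxifen A had 5043 CPM of choroid plexus markers and the lowest C3 of all samples. The part of choroid plexus in the C3 values was not tested.

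C3ar1, the receptor for C3a, lies at chr6:122847138-122856161 on the minus strand. It stood at 5.36 and 5.57 CPM in cortical controls and at 3.52 and 4.39 CPM in cortical tamoxifen, so both tamoxifen samples lay below both controls. In hippocampus it stood at 10.2 and 18.1 CPM in controls and 10.3 and 10.2 CPM in tamoxifen, where the groups overlapped. The regional difference over both labels was 1.11 (SE 0.19, edgeR adjusted p = 0.0127), with all hippocampal samples above all cortical ones.

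C5ar1, the receptor for C5a, lies at chr7:16246743-16259540 on the minus strand and was the lowest of the 3 receptors among the 8, with 31 to 299 counts per sample. It stood at 0.678 and 0.366 CPM in cortical controls, 0.754 and 0.652 CPM in cortical tamoxifen, 2.40 and 2.24 CPM in hippocampal controls and 2.84 and 2.37 CPM in hippocampal tamoxifen. No hippocampal sample was near the cortical range. Its regional difference of 1.73 on the log2 scale (SE 0.26, edgeR adjusted p = 0.00879) was larger than that of any other called gene of the 8.

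Itgam lies at chr7:128062640-128128160 on the plus strand, and encodes the alpha chain of complement receptor 3. It stood at 45.5 and 54.5 CPM in cortical controls, 51.3 and 55.7 CPM in cortical tamoxifen, 99.2 and 142 CPM in hippocampal controls and 124 and 93.4 CPM in hippocampal tamoxifen. The regions did not overlap, and the labels did within each. The regional log2 fold change was 0.87 (SE 0.17, edgeR adjusted p = 0.018). Its partner Itgb2 ran from 11.9 to 14.7 CPM in cortex and 23.0 to 40.7 CPM in hippocampus, which differ by 0.86 on the log2 scale (SE 0.18, edgeR adjusted p = 0.0224).

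**Figure D3:**
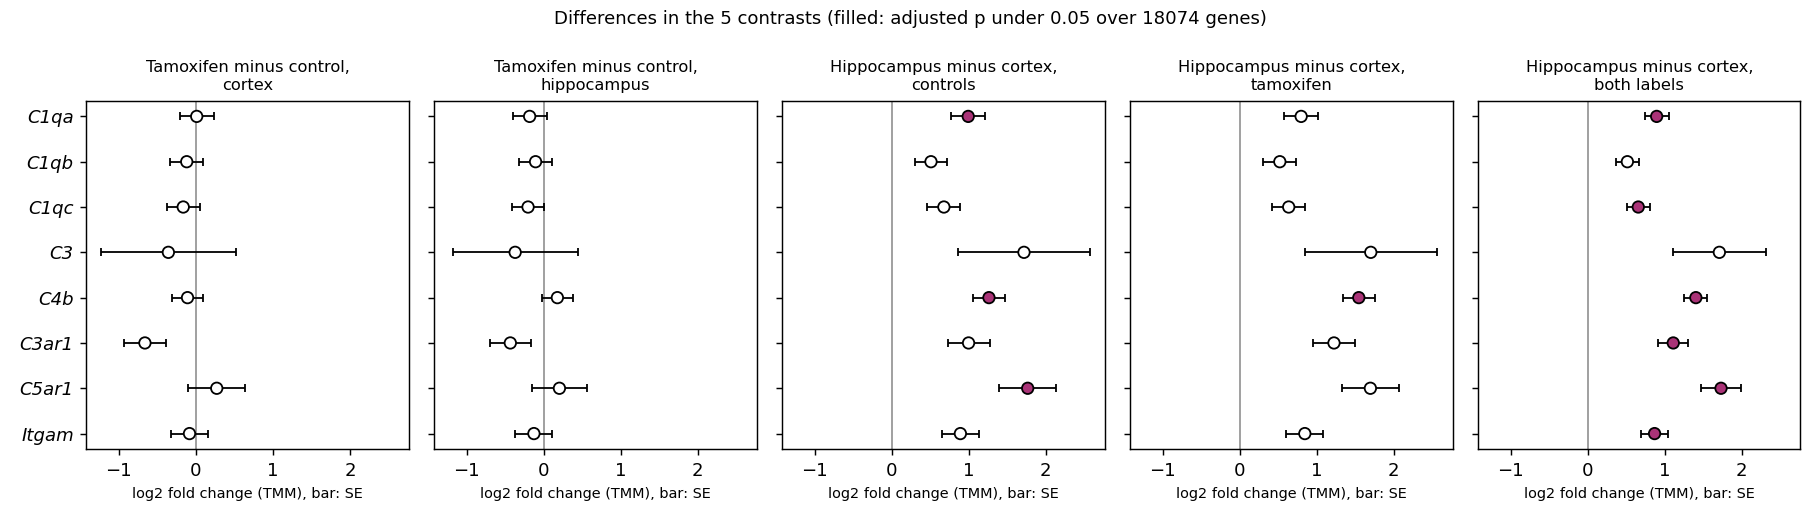
Log2 fold change on TMM scaling (x axis) with its SE (bars) for the 8 genes in 5 contrasts; filled circles have an edgeR adjusted p under 0.05 over 18074 genes. All values lie right of 0 in the 3 regional panels, with 3, 1 and 6 filled circles, and no circle is filled in the 2 tamoxifen panels.

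All 4 hippocampal samples exceeded all 4 cortical samples for 7 of the 8 genes on the CPM scale, C3 being the exception, where 21.9% of all genes did so. On TMM scaling the same count was 7 of 8 against 11.8% of all genes. Among controls alone, 3 of the 8 were called higher in hippocampus (C1qa, C4b and C5ar1), with 2.71% of all genes called higher. Among tamoxifen samples alone, only C4b was called, with 0.426% of all genes called higher. The regional differences of the 8 genes in these 2 comparisons ranged from 0.51 to 1.76 and from 0.52 to 1.70, 8 of 8 positive in each where 50.1% and 47.5% of all genes were, with edgeR adjusted p up to 0.243 and 0.307. DESeq2 called 6, 6 and 8 of the 8 higher among controls, among tamoxifen samples and over both labels, where it called 9.66%, 5.49% and 13% of all genes higher. In the control comparison the C1qa call (edgeR adjusted p = 0.0488) was lost with upper quartile scaling, at 0.0568. There C1qa and C5ar1 were each lost in 6 of the 8 fits that left out a sample, at edgeR adjusted p up to 0.268 and 0.289. The calls over both labels without cortical tamoxifen B, the sample set apart by its neuronal and mitochondrial share, were the same 6 genes.

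Leaving out cortical control A or B took 4 and 5 of the 6 calls over both labels above the threshold of 0.05 in turn. C1qa reached edgeR adjusted p of 0.0665 and 0.0585, C1qc 0.114 and 0.0894, C3ar1 0.0641 and 0.0653, and Itgam 0.08 and 0.0661, without cortical control A and B in turn. C5ar1 reached 0.0514 without cortical control B. Without hippocampal control B, C1qc and Itgam reached 0.0802 and 0.0608, and without hippocampal tamoxifen A 0.0806 and 0.0537. C1qc also reached 0.0507 without hippocampal tamoxifen B. The log2 fold changes of the 6 genes stayed positive in all of these, from 0.50 to 1.97.

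Microglial genes as a whole were higher in hippocampus. Of the 15 microglial markers 15 had positive regional differences over both labels, 14 were called higher, and their median was 0.91, beside 1.00 for the complement genes. Of all genes 50% were positive and 8.42% called higher. P2ry12, a receptor of resting microglia, ran from 51.3 to 64.6 CPM in cortex and from 115 to 193 CPM in hippocampus. The 8 border macrophage markers were all positive, with 5 called and a median of 1.57, at 26.5 to 30.8 CPM in sum in cortex and 57.1 to 88.8 CPM in hippocampus. The part of these cells in the complement differences was not tested.

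Set against the mean log2(CPM + 0.5) of the 15 microglial markers in the same sample, the spread between samples was several times smaller for C1qa, C1qc, C3ar1 and Itgam and not for C3. C1qa ranged over 1.73 log2 units between samples on its own and over 0.30 relative to the markers. For Itgam the ranges were 1.63 and 0.32, for C1qc 1.42 and 0.31 and for C1qb 1.22 and 0.58. For C3ar1 they were 2.21 and 0.64. C4b kept a range of 0.98 relative to the markers, with all 4 hippocampal samples above all 4 cortical ones, and C5ar1 a range of 0.99 without such a split. C1qb and C1qc went the other way. Relative to the markers C1qb was lower in all hippocampal samples (1.04 to 1.25) than in all cortical ones (1.41 to 1.62). C1qc was likewise lower, at 1.056 to 1.139 in hippocampus against 1.245 to 1.368 in cortex. The added 0.5 is near cortical C5ar1 (0.366 to 0.754 CPM) and above cortical C3 (0.168 to 0.331 CPM). It narrows the ranges of C5ar1 and C3, which therefore cannot be set beside that of C4b. These relative values are a description, and Trem2 and Tyrobp of the marker list are themselves among the genes most like C1q.

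**Figure D4:**
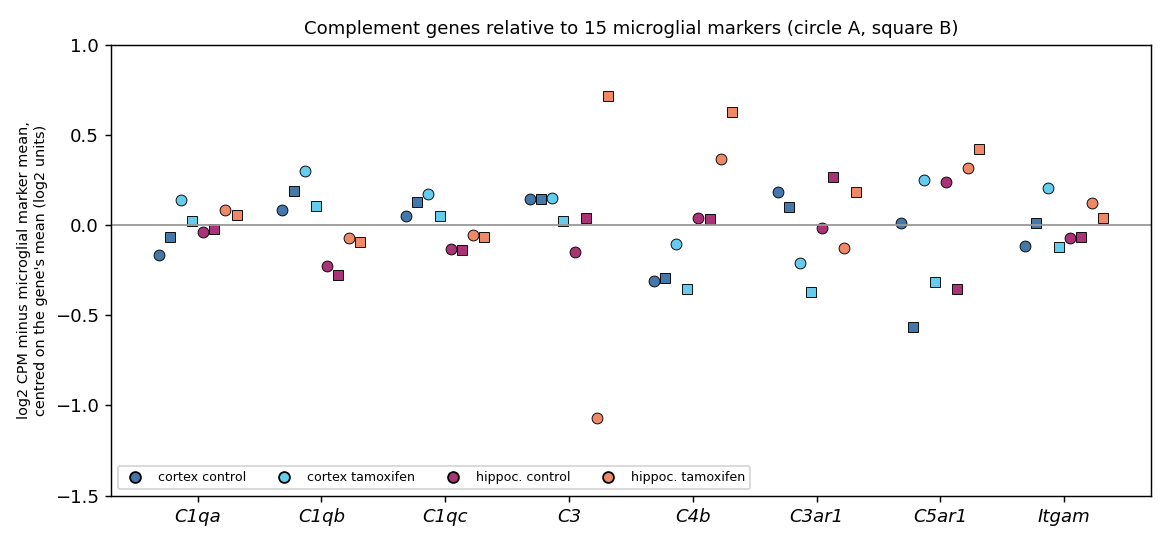
Log2(CPM + 0.5) of each complement gene minus the mean of 15 microglial markers in the same sample, centred on the gene's mean over the 8 samples (y axis, log2 units); colours are the 4 groups, circles sample A and squares sample B. C1qa, C1qc and Itgam stay within a range of 0.30 to 0.32, C4b is highest in hippocampal tamoxifen, and C3 spreads over 1.78, a range narrowed by the added 0.5.

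The genes whose profile over the 8 samples was nearest to the mean C1q profile were Trem2, Grn, Rps6ka1, Tyrobp and Cd68, out of 12636 genes with a mean of at least 1 CPM. Nearness was the root mean square difference between log2(CPM + 0.5) profiles centred on their means: 0.0486 for Trem2, a lipid receptor of microglia, 0.0518 for Grn, the gene of progranulin, 0.0562 for Rps6ka1, a kinase, 0.0624 for Tyrobp, the signalling partner of Trem2, and 0.0633 for the lysosomal Cd68. The C1q profile itself deviated from its mean by 0.510. Trem2 ran from 22.9 to 30.2 CPM in cortex and from 41.1 to 68.3 CPM in hippocampus. For Itgam the nearest were Ly86 (0.0636), Golm1 (0.0697) and Irf5 (0.0716), for C3ar1 Tbxas1 (0.0985), Tlr7 (0.107) and Mylip (0.112). For C4b they were Gpr84 (0.138), Angpt1 (0.143) and Kcng2 (0.176), for C5ar1 Homer3 (0.151), Icosl (0.153) and Cyp1b1 (0.161), and for C3 Marveld2 (0.262), Thsd4 (0.292) and Mcm6 (0.299). The distances for C3 were thus larger than those for C1q, but the 2 are not on equal terms. C3 had only 14 to 168 counts per sample, and genes under a mean of 1 CPM were not ranked. The C1q profile was a mean of 3 abundant genes.

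Tamoxifen moved none of the 8 genes past the threshold in either region, by edgeR, by DESeq2 or in any other alternative run. In cortex the log2 fold changes of the C1q chains were 0.01 for C1qa (SE 0.22), -0.12 for C1qb (SE 0.21) and -0.16 for C1qc (SE 0.21), and those of C4b, Itgam and C3 were -0.11 (SE 0.21), -0.08 (SE 0.24) and -0.36 (SE 0.87). C5ar1 was at 0.27 (SE 0.37). C3ar1 had the largest difference, -0.66 (SE 0.27), with an unadjusted p of 0.0462 in edgeR and an adjusted p of 0.83, and was the 1 gene of the 8 with an unadjusted p under 0.05, which 4.97% of all genes had. Its 2 tamoxifen samples lay below its 2 controls on both scales, as did 6.29% of all genes on CPM and 15% on TMM scaling. Without TMM scaling the median of all genes rose from 0.04 to 0.25, C3ar1 was at -0.47, and C1qb, C1qc, C4b and Itgam turned positive, at 0.07, 0.03, 0.08 and 0.10. The C3ar1 value stayed between -0.74 and -0.59 whichever sample was left out.

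No gene of the 18074 was called in the cortical comparison by edgeR (0% of genes), 899 had an unadjusted p under 0.05, and DESeq2 called 8 genes. In hippocampus edgeR again called 0 genes (0%), 653 or 3.61% had an unadjusted p under 0.05, none of the 8 among them, and DESeq2 called 8. There the log2 fold changes were -0.18 for C1qa (SE 0.22), -0.11 for C1qb (SE 0.21) and -0.20 for C1qc (SE 0.21). C4b was at 0.18 (SE 0.20), C3 at -0.37 (SE 0.81), C3ar1 at -0.44 (SE 0.27), C5ar1 at 0.20 (SE 0.35) and Itgam at -0.13 (SE 0.24), all with an edgeR adjusted p of 1. On TMM scaling both tamoxifen samples of C5ar1 lay above both controls, as they did for 21% of all genes, while on CPM tamoxifen sample B, at 2.37, lay between the controls.

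Without hippocampal control B, the sample with the most C1q, the difference turned to 0.15 for C1qa, 0.18 for C1qb, 0.11 for C1qc, 0.28 for C3, 0.08 for C3ar1 and 0.20 for Itgam. C1qb and Itgam also turned without hippocampal tamoxifen B, to 0.02 and 0.03, C3 without tamoxifen A, to 0.43, and C4b without control A, to -0.09. Control B had the highest microglial marker sum, 2719 CPM against 1863 CPM in control A and 2020 and 1642 CPM with tamoxifen. On TMM scaling all 15 microglial markers had negative tamoxifen differences in each region, where 55.4% and 48.7% of all genes were positive in cortex and hippocampus. Their medians were -0.19 in cortex and -0.30 in hippocampus, against 0.04 and -0.01 for all genes, and none was called. On CPM the marker sums overlapped in cortex, at 839 and 924 CPM in controls and 771 and 1041 CPM with tamoxifen. Without TMM scaling the cortical median of all genes was 0.25. The difference between the regions' tamoxifen effects ranged from -0.20 for C1qa to 0.28 for C4b over the 8 genes. None was called in edgeR, with the smallest adjusted p at 0.948, and no gene of all tested was called (0%, with 981 at an unadjusted p under 0.05 and 4 called by DESeq2).

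Of 51 other complement genes listed by role, 33 passed the filter on low counts. Over both labels 22 had positive and 11 negative differences between hippocampus and cortex, 6 were called higher in hippocampus by edgeR and 1 lower, where 8.42% of all genes were called higher, and the median was 0.33 on the log2 scale against 0.00 for all genes. Leaving out 1 of the 8 samples in turn lost the call of Itgax 7 times (edgeR adjusted p up to 0.13), of Clu 6 times (0.103) and of Csmd2 6 times (0.179). Those of Colec12 and Csmd3 were lost 5 times (up to 0.0974 and 0.11), of Itgb2 4 times (0.0923) and of Vtn 2 times (0.0528). Among the genes listed as activation components 9 of 18 passed the filter and 1 was called, the collectin Colec12. It ran from 2.76 to 3.51 CPM in cortex and 5.89 to 8.56 CPM in hippocampus (log2 fold change 0.83, SE 0.17, edgeR adjusted p = 0.0213). Cfp, properdin of the alternative pathway, was at -0.32 (SE 0.16, edgeR adjusted p = 0.206). Of 7 terminal components, which build the membrane pore, 2 passed the filter, none was called, and all 7 were under 1 CPM in every sample.

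Of 6 other receptors 5 passed the filter and 2 were called, Itgb2 and Itgax. Itgax, the alpha chain of complement receptor 4, stood at 0.503 to 1.22 CPM in cortex and 1.68 to 5.23 CPM in hippocampus (log2 fold change 1.32, SE 0.34, edgeR adjusted p = 0.0392). C5ar2, the other C5a receptor, was at 1.38 (SE 0.51, edgeR adjusted p = 0.103), with values from 0.130 to 0.898 CPM in cortex and 0.582 to 2.42 CPM in hippocampus. Cd93 was at 0.06 (SE 0.27).

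Of 20 regulators 17 passed the filter, 3 were called higher and 1 lower. Vtn, vitronectin, which blocks the membrane pore, ran from 50.4 to 59.0 CPM in cortex and 99.0 to 119 CPM in hippocampus (log2 fold change 0.69, SE 0.10, edgeR adjusted p = 0.0077). Clu, clusterin, another fluid inhibitor of the pore, ran from 750 to 909 CPM and from 1396 to 1658 CPM (log2 fold change 0.57, SE 0.12, edgeR adjusted p = 0.0211). Among the neuronal CSMD proteins, Csmd3 was higher in hippocampus (0.87, SE 0.20, edgeR adjusted p = 0.0263) and Csmd2, with 38.8 CPM in cortical tamoxifen B and 13.1 to 20.7 CPM in the other samples, was lower (-0.72, SE 0.20, edgeR adjusted p = 0.047). The Csmd2 call was lost without TMM scaling, at an adjusted p of 0.23. Serping1, the C1 inhibitor, was at 0.91 (SE 0.28, edgeR adjusted p = 0.063) and Sez6 at -0.57 (SE 0.30, edgeR adjusted p = 0.218).

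Cd55, which splits the convertases on host cells, had the widest spread of the regulators named here. It stood at 0.771 and 0.142 CPM in cortical controls, 4.13 and 0.702 CPM in cortical tamoxifen, 11.4 and 6.76 CPM in hippocampal controls and 0.428 and 6.14 CPM in hippocampal tamoxifen. The 4 highest samples were also the 4 highest in choroid plexus markers, whose sums in the same order were 938, 6.09, 5043, 5.52, 17199, 8055, 47.1 and 8137 CPM. The part of choroid plexus in the Cd55 values was not tested. Its regional difference was 2.03 (SE 1.08, edgeR adjusted p = 0.237), and that of Cd59a, the membrane inhibitor of the pore, 0.84 (SE 0.47, edgeR adjusted p = 0.247).

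With tamoxifen none of the 33 tested pathway genes was called by edgeR in either region, where 0 of all 18074 genes were. With the 16 libraries taken separately 1 of 30 was called in cortex and 0 of 30 in hippocampus. At an unadjusted edgeR p under 0.05 there were 0 of the 33 in cortex and 1 in hippocampus, and DESeq2 called 0 in each. In cortex 20 differences were positive and 13 negative, with a median of 0.16, against 0.04 for all genes, and in hippocampus 13 were positive and 20 negative, with a median of -0.07, against -0.01. Among controls edgeR called 1 of the 33 between regions, Vtn (0.62, SE 0.13, edgeR adjusted p = 0.0454), where 2.71% of all genes were called higher. Among tamoxifen samples edgeR called 0 of the 33, with 8 at an unadjusted p under 0.05, as 21.6% of all genes were. DESeq2 called 7 of 32 among controls and 4 of 30 among tamoxifen samples, and limma voom on correlated libraries 7 and 8 of 30. These counts take both directions and are not read as a result about the list. The calls of both tools over all genes are given below, DESeq2 having tested 17373 and 16322 genes in turn. The Vtn call among controls was lost with upper quartile scaling, at an edgeR adjusted p of 0.055, and in 6 of the 8 fits that left out a sample, at up to 0.289.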

How the data were processed

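RNA was extracted with Trizol, per the labels' protocols, and the submitters' processing notes name STAR, HTSeq and the mm10 build. The sources used here give no versions, annotation release or strand setting, and do not say if neighbouring libraries share an animal. The deposited values are raw counts per gene. The exon length beside each count, another kind of value, is that of the authors and was used only for CPM per kb. Unassigned reads were left out.

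Libraries held 33236178 to 57195203 counts in genes. Differences within the 8 neighbouring pairs of libraries were 2.58 to 2.79 times the Poisson variance at 20 to 200 counts and 3.12 to 6.5 times above 2000 counts, against 3.59 to 16.7 and 13.6 to 748 times in the 16 other pairs. Their counts were therefore added, giving 8 samples, a choice made from the values. A library's count of a gene over the sum of its gene rows gave CPM.

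Tests used edgeR 4.0.16 in R 4.3.3: filterByExpr, TMM, a fit of 4 group means to the 8 samples, the robust quasi-likelihood test and Benjamini-Hochberg adjustment over 18074 genes with a threshold of 0.05. SE is the log2 fold change over the square root of F. The code was tested on simulated data. The regional contrast averaged over both labels and the ratios between members were added after seeing the data. DESeq2 1.42.0, limma 3.58.1 with voom and other scalings, filters, blocks and left-out samples were the alternatives. Python 3.11.15 gave levels and ratios. The members, the lists, which were matched for all 139 entries, and the tests were chosen with earlier results of these data known. Named pathway genes are those past the threshold in a contrast and the 2 with the largest difference in each direction at a mean of at least 1 CPM. The correlation of the difference between samples A and B over genes was 0.422 between the cortical groups, -0.33 between the hippocampal groups, 0.339 between the regions' controls and -0.536 between their tamoxifen groups, so the letters were not taken to pair samples.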

Additional observations from a re-analysis of the deposited data

How the results depend on the processing

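Against 0, 0 and 0 edgeR calls for tamoxifen in cortex, in hippocampus and for their difference, DESeq2 gave 8, 8 and 4, the 16 libraries taken separately 562, 318 and 867, and taken as correlated (limma voom) 15, 3 and 112, and no count filter gave 1 in cortex. For hippocampus against cortex among controls, among tamoxifen samples and over both labels, edgeR called 1118, 202 and 3318 genes. DESeq2 gave 3207 and 1946 in the first 2, separate libraries 6982, 5510 and 8480, correlated libraries 3380, 2861 and 5029, no TMM factor 2064 and 26, and no count filter 536 among tamoxifen samples. Leaving out 1 sample in turn gave 0 to 2014 calls for tamoxifen in cortex, and 0 to 3915, 0 to 4092 and 369 to 6144 for the 3 regional comparisons. The cause was not tested.

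The letters A and B do not pair samples in the labels. With a replicate block the regional counts were 72, 0 and 2110. The block took the calls of C1qa, C4b and C5ar1 among controls to edgeR adjusted p of 0.0922, 0.072 and 0.074, C4b among tamoxifen samples to 0.0907 and C1qc over both labels to 0.053. Crossing the letters of hippocampal tamoxifen, chosen after seeing the data, gave 2036 and 121 calls among controls and among tamoxifen samples.

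Small tamoxifen values changed sign. In cortex C1qa was 0 with RLE scaling, -0.03 with upper quartile and 0 with DESeq2, and without a TMM factor C1qb, C1qc, C4b and Itgam were 0.07, 0.03, 0.08 and 0.1. The difference between regions was -0.2 for C1qb without a TMM factor, 0.04, 0.05, 0.01 and 0.04 for C1qc, C3, C5ar1 and Itgam with upper quartile, 0 for C3 with DESeq2 and 0.01 for C5ar1 with correlated libraries. Leaving out 1 sample in turn, cortical values ran from -0.12 to 0.15 (C1qa), -0.25 to 0.03 (C1qb), -0.25 to 0.02 (C4b), -0.1 to 0.76 (C5ar1) and -0.27 to 0.08 (Itgam). Hippocampal values ran from -0.46 to 0.15 (C1qa), -0.35 to 0.18 (C1qb), -0.47 to 0.11 (C1qc), -2.35 to 0.43 (C3), -0.09 to 0.5 (C4b), -0.82 to 0.08 (C3ar1), -0.4 to 0.2 (Itgam) and -1.38 to 0.2 (Tert). Differences between regions ran from -0.47 to 0.14 (C1qa), -0.23 to 0.3 (C1qb), -0.3 to 0.28 (C1qc), -1.97 to 0.79 (C3), -0.15 to 0.74 (C3ar1), -0.55 to 0.3 (C5ar1) and -0.31 to 0.28 (Itgam). C3 between regions among tamoxifen samples ran from -0.23 to 2.51, the other regional values of the 8 genes keeping their sign in all 18 alternatives.

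The summed CPM of the 8 genes was 405.5 in cortical controls, 432.3 in cortical tamoxifen, 905.8 in hippocampal controls and 810.8 in hippocampal tamoxifen. Without mitochondrial genes these were 590, 576.3, 1201 and 1088, and on TMM library sizes cortical controls were at 476.5. C3 had 14 to 168 counts per sample.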
